A study of Mus musculus with 44 samples.

Results

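The libraries compared here are the synaptosome-fraction libraries (SN_input) and the whole-tissue libraries (Input) of tamoxifen-treated mice, 8 of each, together 16 of the 44 libraries of the series. They were taken by their labels, letters D to K in both fractions. All 16 come from dorsal cortex and hippocampus, collected as 1 tissue sample with no separate library for either region, at postnatal day 28 to 29. Every mouse, the control mice included, carried CX3CR1-CreERT2 (+/-) and RPL10a-GFP flox (+/-), a Cre knocked in at a microglial and macrophage gene and a floxed ribosome tag. Tamoxifen, which activates this Cre, was given at 100 mg/kg on postnatal days 15, 17 and 19. Letters D to F and letters G to K belong to separate sets of libraries, and set was a covariate in every test of these 16 libraries. Control mice (letters A to C, first set) were given no tamoxifen and were also collected at postnatal day 28 to 29. They gave 3 libraries of each fraction and were read as a separate comparison. None of these libraries was immunoprecipitated, so the tag plays no part in which RNA was counted.

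Synaptosomes are pinched-off nerve terminals, often with a piece of the postsynaptic membrane attached, that reseal when brain tissue is homogenised gently. They hold synaptic vesicles, mitochondria and some ribosomes, and they lack the nucleus. Preparations of this kind are known to carry other membrane-bound particles along, such as myelin, free mitochondria and processes of astrocytes and microglia. RNA in such a fraction can therefore come from several cell types, and more particles of a type and more RNA per particle cannot be told apart in bulk libraries.

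Reads assigned to genes numbered from 3288305 to 19931477 in Input and from 4731366 to 15069226 in SN_input. The libraries of the first set stood apart. Between libraries of the same group, the correlation of log2 CPM (counts scaled to library size) across genes was 0.896 to 0.919 in Input and 0.76 to 0.92 in SN_input among letters D to F, against 0.994 to 0.996 and 0.964 to 0.978 among letters G to K. Reads on the mitochondrial chromosome made up 1.19% to 12.6% of the assigned reads in Input and 15.3% to 66.0% in SN_input among letters D to F, against 1.70% to 2.90% and 17.9% to 20.3% among letters G to K. Letters E and F hold the high values of both fractions. SN_input D had at least 10 reads in 6208 genes, the fewest of the 16 libraries, while the SN_input libraries of the second set had 12398 to 13427 such genes. Nothing in the sources ties the letters to separate animals, so p-values measure only the spread between these samples, which may be technical. List medians within each set are given for some lists below and in the plot of list medians. A letter of one fraction is set against the same letter of the other by its label alone, since the sources do not say that both libraries come from 1 animal, and counts of letters describe the spread only.

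The comparison asked which RNAs the synaptosome preparation kept or lost relative to the tissue it was made from. With edgeR's quasi-likelihood test, 1685 of 13299 genes tested were higher in SN_input (12.7%) and 831 were lower (6.25%) at a Benjamini-Hochberg adjusted p under 0.05. These percentages are the background against which every count below stands. The median log2 fold change of all tested genes was -0.04. Of the called genes, 1045 of the 1685 higher ones were higher in SN_input for all 8 letters, and 659 of the 831 lower ones were lower for all 8. Scaling mattered: with library totals as the only scaling, the median of all genes moved by -1.07 and the calls split into 461 higher and 5048 lower, so the changes below are relative to the bulk of expressed genes. Of the genes called higher and named below, Camk2a, Slc17a7, Grin2a, Canx, Hspa5, Bsg, Got2, Ldhb, Eef2, Nfix, Psma7 and Tmsb4x had negative fold changes with library totals alone. The first set alone gave 0 calls with 761 genes at an unadjusted p under 0.05, and the second set alone gave 3555 higher and 3352 lower. A fit of all 16 libraries with a set by fraction interaction called 972 higher and 710 lower in the first set. In the second set it called 1206 and 341. Leaving out letter D gave 2756 higher and 1963 lower, and leaving out any single letter of G to K gave 1168 to 1203 higher and 454 to 480 lower. Of the results named below, 26 to 29 lost their call without 1 of the letters G to K, 12 without letter E and 7 without letter F. Hspa8, Hbb-bs, Gabrb2, Gfap, Lhx6, Aldoa, Slc17a7, Rian, Bc1, Rasgrf2, Gphn, Calb2, Bsg, Dlst, Nfix, Mdh1, Pfkp, Gad2, Olig1, Tmsb4x, Mrps21, Hbb-bt, Cspg4, Gas5, Cnksr2, Psma7, Gm10925, Bcl11a, Cdh5, Ptprc, Pf4 and H2afj each lost it without at least 1 letter.

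The libraries that enter the fit set how many genes pass. A fit of all 32 tamoxifen libraries, which takes the spread also from the immunoprecipitated ones, gave 332 higher and 50 lower, and 98 of the results named below lost their call there. In that fit the lists of mitochondrially encoded mRNA (8 higher) and microglia (27 higher) had the counts given below, and nuclear long noncoding RNAs had 4 lower. The counts of members called higher were 26 for the respiratory chain, 23 for cytosolic ribosomal proteins, 9 each for astrocytes and lysosomes, 5 each for myelin, dendritic mRNAs and mitochondrial tRNA, 3 for the endoplasmic reticulum and 2 for mitochondrial ribosomal proteins. There were 0 calls for oligodendrocyte precursors, endothelium, ependyma and choroid plexus, blood, presynaptic mRNAs, excitatory and inhibitory neurons, immediate early genes, splicing factors, chaperones, proteasome, channels and histones, and the postsynaptic list had 2 higher and 0 lower. Without letter D, in contrast, most lists had more calls, such as 4 higher and 6 lower for excitatory neurons, 5 and 15 for presynaptic mRNAs, 13 and 8 for dendritic mRNAs, 12 and 7 for the tricarboxylic acid cycle, 7 and 1 for neuropeptides and granule proteins, and 31 and 1 for mitochondrial ribosomal proteins.

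RNA classes separated the fractions first. Shares below are percentages of the assigned reads, as lowest, median and highest of 8 libraries, and p-values are exact two-sided permutation tests within set, adjusted over the 13 classes. Messenger RNA encoded by the mitochondrial chromosome made up 0.857%, 1.81% and 2.64% in Input and 2.71%, 14.3% and 15.4% in SN_input. The groups did not overlap (adjusted p = 0.000737, higher in 8 of 8 letters). Mitochondrial ribosomal RNA went from 0.15%, 0.255% and 10.9% to 2.74%, 4.83% and 61.4% (adjusted p = 0.000737, 8 of 8 letters). Here the groups overlapped, because Input E and F were as high as the SN_input libraries of the second set. Mitochondrial tRNA was 0.00345% at the median in Input and 0.0348% in SN_input (adjusted p = 0.00172, 8 of 8 letters).

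Several nuclear noncoding classes fell as a share of reads. Long intergenic noncoding RNA (lincRNA) fell from 0.209%, 0.262% and 3.76% in Input to 0.0774%, 0.101% and 0.258% in SN_input (adjusted p = 0.000737, lower in 8 of 8 letters). It also fell as a share of the reads outside the mitochondrial chromosome, from a median of 0.27% to 0.126% (exact permutation p = 0.000794). Gene by gene the class was split: of 83 lincRNAs tested, 7 were higher and 8 lower. Their median log2 fold change was -0.21, and 0.17 among letters G to K. Malat1 alone held 3.41% and 3.43% of the reads outside the mitochondrial chromosome in Input E and F. The whole class held at most 4.25% in any Input library. TEC loci, which GENCODE lists as transcripts still to be tested by experiment, fell from a median of 0.137% to 0.0376% with no overlap between the fractions (adjusted p = 0.000737). Small nucleolar and Cajal body RNAs were rare in both, with a median of 0.00286% in Input and 0.000804% in SN_input, and small nuclear RNAs went from 0.000844% to 0.000168% (both adjusted p = 0.000737, no overlap). The class of processed transcripts fell from a median of 0.0625% to 0.0467% (adjusted p = 0.000737, lower in 8 of 8 letters), but did not pass as a share of the reads outside the mitochondrial chromosome (exact permutation p = 0.079). Of its 72 genes tested, 7 were higher and 7 lower. Unprocessed pseudogenes rose, from a median of 0.00461% to 0.0114% (adjusted p = 0.0366, higher in 7 of 8 letters), but the call was lost on leaving out any single letter of G to K. Antisense RNAs (adjusted p = 0.237, lower in 8 of 8 letters), processed pseudogenes (adjusted p = 0.568, higher in 6) and miRNA genes (adjusted p = 0.71, higher in 7) did not pass the test. For processed pseudogenes the ratio of mean shares, SN_input over Input, was 0.40 among letters D to F and 2.08 among letters G to K. Reads with a single alignment that the counting placed in no annotated feature were, as a share of the reads with a single alignment, 5.29%, 9.98% and 14.5% in Input and 2.40%, 5.91% and 7.06% in SN_input (exact permutation, adjusted p = 0.00238 over 6 assignment shares, lower in 8 of 8 letters).

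**Figure D1:**
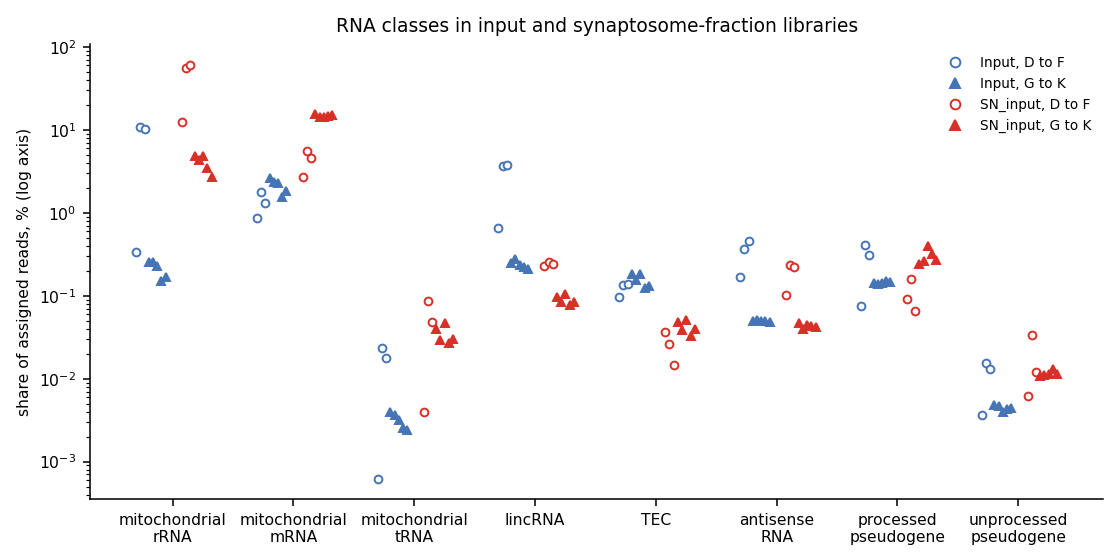
Share of assigned reads (%, log axis) of 8 RNA classes in each of the 16 libraries, Input in blue and SN_input in red, open circles for letters D to F and triangles for letters G to K. Mitochondrial mRNA is at least 2.71% in the SN_input libraries and at most 2.64% in the Input libraries, and TEC loci show the opposite order.

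Protein-coding genes of the nucleus lost share as mitochondrial reads gained it, from a median of 96.6% to 80.4% of assigned reads (adjusted p = 0.00172), while their share of the reads outside the mitochondrial chromosome had medians of 99.1% in both fractions. The SN_input libraries also held fewer detected genes at equal depth: with every library thinned to 3278640 reads, 10629 to 12257 genes had at least 10 reads in Input and 5839 to 11128 in SN_input (exact permutation, adjusted p = 0.000992 over 5 detection measures, lower in 8 of 8 letters). The mean difference was -2103 genes. For nuclear genes alone at equal nuclear depth it was -1387 (adjusted p = 0.00119), and letter E was then higher in SN_input, at 9752 against 9575. The 100 leading nuclear genes of each library held 16% to 26.8% of its nuclear reads in Input and 28.7% to 33.1% in SN_input. The gene with most nuclear reads was Actb, Snap25 or Malat1 in Input and Mbp, Cox6a1, Apoe or Actb in SN_input.

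All 8 mitochondrially encoded mRNAs that passed the filter on low counts were higher in SN_input, with a median log2 fold change of 3.59. mt-Co1, the catalytic core of cytochrome oxidase, lay at 9.99, 11.51 and 12.29 log2 CPM in Input (lowest, median and highest library) and at 13.47, 15.45 and 15.53 in SN_input. The fractions did not overlap, and the fold change was 3.53 ± 0.21 (SE, adjusted p = 8.14e-10). mt-Cytb, of complex III, rose by 3.27 ± 0.27 and mt-Nd3, of complex I, by 4.40 ± 0.56. mt-Nd6, the only mRNA read from the other strand of the mitochondrial genome, rose by 3.92 ± 0.44. Both ribosomal RNAs rose, mt-Rnr1 by 4.57 ± 0.56 and mt-Rnr2 by 4.72 ± 0.61.

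The other 5 of the 13 mitochondrial mRNAs were nearly unread in both fractions. The largest count in any of the 16 libraries was 22 for mt-Co2 and 9 each for mt-Co3 and mt-Atp6, and mt-Atp8 and mt-Nd4l had 0, which allows up to 3 reads per library. All but mt-Atp8 have annotated copies in the nuclear genome. Of all windows of 50 bases in mt-Co2, mt-Co3, mt-Atp6 and mt-Nd4l, 100%, 99.9%, 99.5% and 98.8% also stand letter for letter in the transcript of another annotated gene, against 0% for mt-Cytb, mt-Nd1 and mt-Nd6. For mt-Atp8 the share was also 0% among annotated transcripts. Among the mRNAs that passed the filter, it was 98.0% for mt-Nd3, 62.2% for mt-Nd4 and 51.1% for mt-Co1. Their largest counts in a library were 8664, 262733 and 568762. The part that shared sequence plays in the low counts was not tested. The first 60 bases of mt-Atp6 (GRCm38 chrM:7927-7986, plus strand) and of its copy Gm10925 (chr1:24614592-24614651, minus strand) are shown because a read that lies within them cannot be placed in either.
mt-Atp6: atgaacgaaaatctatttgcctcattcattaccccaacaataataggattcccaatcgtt
Gm10925: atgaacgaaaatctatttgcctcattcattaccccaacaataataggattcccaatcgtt
The 2 transcripts were identical at all 678 bases compared, and so were mt-Co2 with Gm28661 over 681 bases and mt-Co3 with Gm28437 over 783 bases. mt-Co1 differs more from its copy Gm13340, with 97.6% of 1545 bases identical, and a stretch with 2 differing bases (capitals) shows how reads can be placed there (chrM:5351-5410, plus strand, and chr2:22589565-22589624, minus strand).
mt-Co1: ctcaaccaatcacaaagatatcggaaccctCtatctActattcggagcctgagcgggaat
Gm13340: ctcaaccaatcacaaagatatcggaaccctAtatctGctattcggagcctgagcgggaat
Annotated nuclear copies that passed the filter numbered 8, all higher in SN_input by 2.98 to 5.04. They make up 8 of the 9 unprocessed pseudogenes called higher, of 12 tested, and were higher in 7 or 8 of 8 letters. Reads with more than 1 alignment, which the gene counts leave out, were 14.2%, 15.6% and 37.3% of all reads in Input and 33.1%, 38.9% and 41.1% in SN_input (exact permutation, adjusted p = 0.00238). Mitochondrial values above are therefore those of the uniquely placed part.

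Of the 22 mitochondrial tRNA genes, 8 passed the filter and 7 of these were higher, with mt-Tl1 at 1.92 not passing the test. Of the 8 tested, 5 lie on the minus strand of the mitochondrial genome, which holds 8 of the 22 genes. The 4 printed here rose most, and the capitals mark the anticodon, found as bases 3 to 5 of a loop of 7 closed by 5 base pairs. They stand at chrM:3772-3842 (mt-Tq, glutamine), chrM:5192-5257 (mt-Tc, cysteine), chrM:5018-5086 (mt-Ta, alanine) and chrM:5089-5159 (mt-Tn, asparagine), all on the minus strand.
mt-Tq: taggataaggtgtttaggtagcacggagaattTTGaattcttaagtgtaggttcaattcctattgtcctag
mt-Tc: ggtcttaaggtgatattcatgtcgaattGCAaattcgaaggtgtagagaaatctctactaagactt
mt-Ta: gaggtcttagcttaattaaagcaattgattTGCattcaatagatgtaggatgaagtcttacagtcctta
mt-Tn: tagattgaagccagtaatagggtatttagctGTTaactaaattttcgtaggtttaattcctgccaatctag
mt-Tq lay at -1.85, 1.82 and 3.87 log2 CPM in Input and at 2.38, 7.14 and 8.19 in SN_input, a rise of 5.16 ± 0.72 (adjusted p = 2.88e-05). mt-Tc rose by 5.04 ± 0.81, and its levels in Input E and F, 6.90 and 6.27, were above those of the SN_input libraries of the second set. mt-Ta rose by 4.46 ± 0.72, mt-Tn by 3.88 ± 0.81 and mt-Tp, of proline, by 3.25 ± 0.62. Whether the counting used strand is not given in the sources used here, and a fragment of this size can belong to a longer precursor or to the RNA of the opposite strand, so these are values for the position and not for mature tRNA.

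Nuclear mRNAs for the respiratory chain and ATP synthase rose as well: 66 of 95 tested members were higher and 0 lower, with a median of 1.25 (0.25, 13 higher and 8 lower, with library totals alone). By complex, 32 of 46 members of complex I, 2 of 4 of complex II, 8 of 12 of complex III, 12 of 15 of complex IV and 12 of 17 of complex V were higher. Complex IV, cytochrome oxidase, had the highest median, 2.09, and complex I had 1.25. Cox4i1, a core regulatory subunit of complex IV, lay at 8.52, 9.49 and 10.38 in Input and at 11.94, 12.18 and 12.63 in SN_input, which did not overlap (2.55 ± 0.24, adjusted p = 1.31e-07). Cox6a1 rose by 2.53 ± 0.40, Cox6c by 2.84 ± 0.48, and Ndufb9, a complex I subunit, by 2.91 ± 0.26. The median was 0.70 among letters D to F and 1.47 among letters G to K. It was -0.87 in the control mice, where no gene was called.

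Other mitochondrial mRNAs of the nucleus followed in part. Of the mRNAs for the mitochondrial ribosome, 21 of 77 were higher and 0 lower, with a median of 0.53 that became -0.50 with library totals alone (2 higher and 17 lower). Leaving out 1 of the letters G to K left 8 to 10 higher. Mrpl33 rose by 2.17 ± 0.43, Mrpl20 by 1.64 and Mrps21 by 1.47 ± 0.44. Of 28 enzymes of the tricarboxylic acid cycle and matrix, 9 were higher and 4 lower, with a median of 0.51 (-0.48, 3 higher and 10 lower, with library totals alone). Without 1 of the letters G to K, 2 or 3 were lower. Mdh1 and Got1, the cytosolic partners of the malate-aspartate shuttle, fell by 0.72 and 1.64, and Got2, a mitochondrial partner, rose by 0.93. Mdh2, the other mitochondrial enzyme of the shuttle, is not reported here. The other 2 that fell were Idh3a (-1.44) and Dlst (-1.53).

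Messenger RNA for the cytosolic ribosome was higher for 56 of 78 tested members and lower for 0, with a median of 1.37 (0.39, and 7 higher, with library totals alone). The small subunit had 22 of 31 higher and the large subunit 34 of 47. Rps14 lay at 5.54, 8.87 and 9.08 in Input and at 8.81, 10.52 and 10.78 in SN_input, and rose by 1.5 ± 0.29 (adjusted p = 0.000926). Rpl13 rose by 1.67 ± 0.25. Their medians were 0.95 among letters D to F, 1.61 among letters G to K and -0.32 in the control mice. Ribosomal protein genes have many processed pseudogenes, and 68 of 213 tested processed pseudogenes were higher and 1 lower, so single members are uncertain. Of 32 translation factors, 9 were higher (0 higher and 14 lower with library totals alone), among them Pabpc1 (1.31), the poly(A) binding protein, and Eif3f (1.57). The 1 that fell was Eif4a2 (-2.09 ± 0.32), an RNA helicase of initiation. Eef1a1 and Eef2, both elongation factors, had fold changes of 0.70, which did not pass, and 0.86 ± 0.18, which did.

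**Figure D2:**
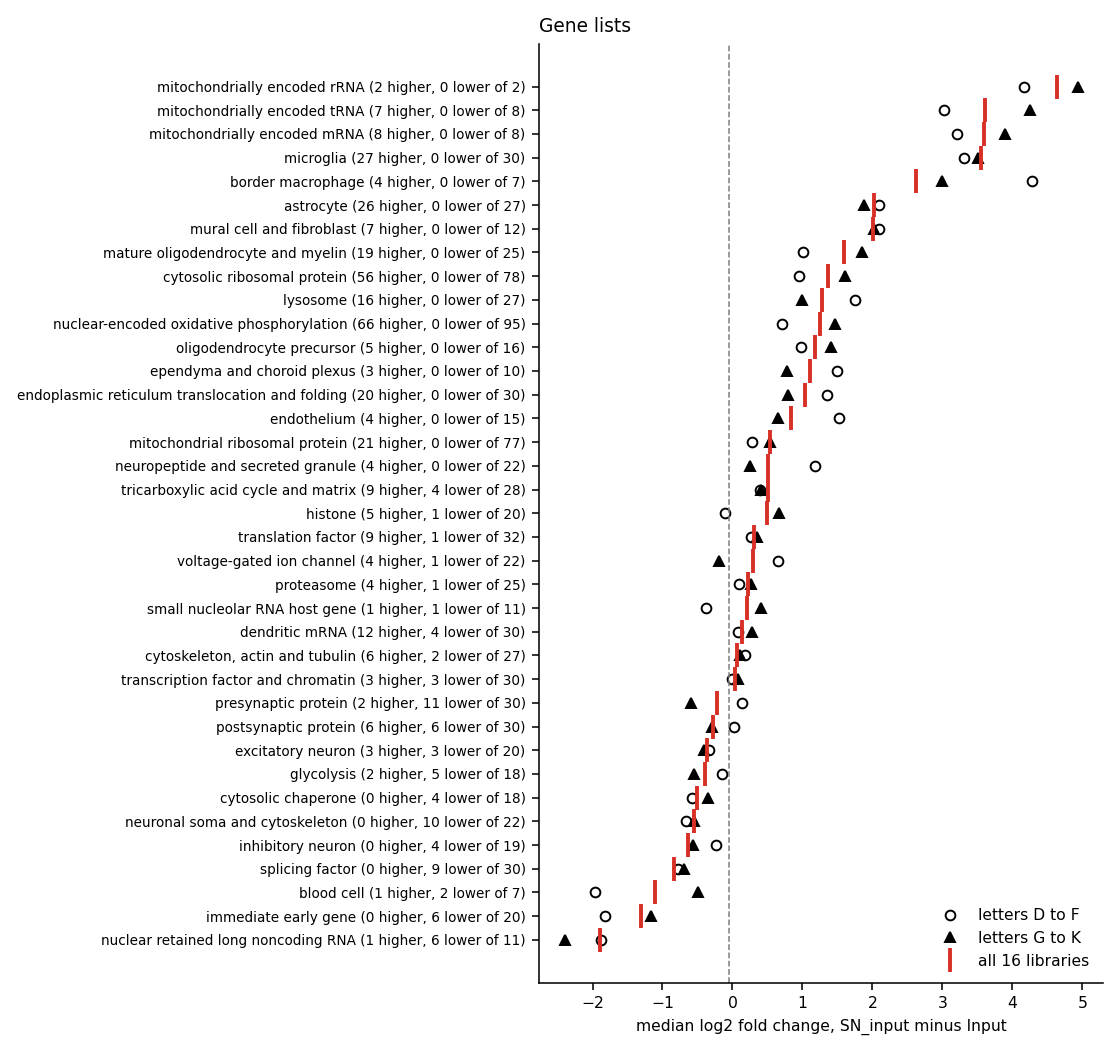
Median log2 fold change of each gene list (SN_input minus Input) in all 16 libraries (red strokes), letters D to F (circles) and letters G to K (triangles), with the numbers of members called; the dashed line is the median of all tested genes. In all 16 libraries, mitochondrially encoded RNAs and markers of microglia, border macrophages and astrocytes lie furthest right. Nuclear long noncoding RNAs and immediate early genes lie furthest left there, whereas among letters D to F the blood cell list does, at -1.96.

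Glial lists differed in how many members rose, from 26 of 27 astrocyte markers to 5 of 16 oligodendrocyte precursor markers. For microglia, 27 of 30 were higher and 0 lower, with a median of 3.55 (24 higher and 2.63 with library totals alone). C1qb, a chain of the complement protein C1q, lay at 5.01, 5.37 and 6.34 in Input and at 8.5, 9.68 and 11.67 in SN_input, without overlap (4.46 ± 0.39, adjusted p = 5.96e-08). Itgam, the integrin chain CD11b, rose by 4.86 ± 0.56 and C1qc by 4.42 ± 0.37. Cx3cr1, the fractalkine receptor of which these mice keep 1 intact allele, rose by 3.81 ± 0.33, P2ry12, a purine receptor, by 2.41 ± 0.33, and Tmem119 by 3.33 ± 0.37. The 30 markers summed to 0.0516% to 0.0764% of nuclear reads in Input and 0.391% to 1.06% in SN_input. The medians were 3.31 and 3.51 in the 2 sets and 3.25 in the control mice.

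Macrophages at the borders of the brain share many of these genes. Of 15 markers chosen for them, 7 passed the filter and 4 were higher: Stab1 (5.09 ± 0.73), Mrc1 (5.04 ± 0.98), Lyz2 (2.94) and Pf4 (2.62 ± 0.70). Mrc1 had levels of -2.88, the value of a count of 0, in at least 1 library of each fraction, and its fold change in the first set rests on few reads. Maf, a transcription factor of macrophages, had 1.01 ± 0.40 and did not pass. Folr2 had at most 2 reads in any library and Cd163 and Lyve1 at most 69 and 42.

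For astrocytes, 26 of 27 markers were higher and 0 lower, with a median of 2.02 (14 higher and 0.92 with library totals alone). Apoe, the main lipid carrier of the brain, lay at 9.90, 10.17 and 10.81 in Input and at 12.63, 13.71 and 14.83 in SN_input (3.48 ± 0.30, adjusted p = 4.26e-08). Slc1a2, the glutamate transporter GLT-1 of astrocyte processes, rose by 3.06 ± 0.25, with 8.44 to 10.06 in Input and 12.07 to 13.20 in SN_input. Neither gene overlapped between the fractions. Glul, glutamine synthetase, rose by 2.29 ± 0.21, Aldoc by 2.05 ± 0.36 and Aqp4, the water channel of astrocyte endfeet, by 1.65 ± 0.22, while Gfap, an intermediate filament, rose by 1.16 ± 0.39. The list summed to 0.868% to 1.25% of nuclear reads in Input and 3.41% to 5.0% in SN_input.

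Mature oligodendrocyte and myelin markers were higher for 19 of 25 and lower for 0, with a median of 1.59 (10 higher and 0.60 with library totals alone). The median was 1.01 among letters D to F and 1.86 among letters G to K. Mbp, myelin basic protein, whose mRNA is carried out to the myelin sheath, lay at 9.18, 10.34 and 10.86 in Input and at 10.95, 14.41 and 15.59 in SN_input (3.96 ± 0.49, adjusted p = 5.21e-06). Its SN_input levels were lowest in letters E and F, at 10.95 and 11.30, and between 13.93 and 15.59 in the other 6 letters. Mobp, another myelin protein, rose by 2.17 ± 0.33 and Bcas1 by 3.39. Of 16 oligodendrocyte precursor markers, 5 were higher, among them Ptprz1 (2.55 ± 0.29), Cspg5 (1.29 ± 0.19), Olig1 (1.25), Cacng4 (1.96) and Cspg4 (2.02). Pdgfra, their defining receptor, had 0.97 ± 0.42 and did not pass. The precursor list had 11 higher without letter D, 3 or 4 without 1 of the letters G to K, and 2 higher and 1 lower with library totals alone, when its median of 1.18 became 0.22.

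Vessel-associated and ventricular lists were small. Of 12 mural cell and fibroblast markers, 7 were higher, with Col1a1 at 3.87 ± 0.62 and Col1a2 at 3.52 ± 0.47, both without overlap (5 higher with library totals alone). Their summed share was 0.00827% to 0.0208% of nuclear reads in Input and 0.0509% to 0.221% in SN_input. Of 15 endothelial markers, 4 were higher, namely Cdh5 (2.93 ± 0.88), Slco1c1 (1.86), Egfl7 (1.48) and Bsg (0.84 ± 0.26), and the list median of 0.84 became -0.12 with library totals alone (0 higher and 2 lower). Without letter I or K, 2 were higher, and the median was 1.53 among letters D to F and 0.66 among letters G to K. Cd34, a surface antigen of vessels, had -0.26 ± 0.50 and did not pass. Of 10 ependymal and choroid plexus markers, Ttr (1.97 ± 0.36), Enpp2 (1.13 ± 0.20) and Rarres2 (3.34 ± 0.71) were higher. Their list median of 1.11 became 0.13 with library totals alone (2 higher), and was 0.12 in the control mice. Of 7 blood cell markers, 1 was higher and 2 lower, with a median of -1.96 among letters D to F and -0.49 among letters G to K. Hbb-bs, an adult beta globin, fell by 1.34 ± 0.45 and its near copy Hbb-bt by 1.60, and reads of the pair are hard to tell apart. Both calls were lost with limma voom and without letter E, F, G or J, and 1 of them without H, I or K. Hba-a1, an alpha globin, had -1.0 ± 0.42 and did not pass. The marker that rose was Ptprc, the leukocyte antigen CD45 that microglia also express (4.13 ± 1.18), and it did not pass without letter G.

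**Figure D3:**
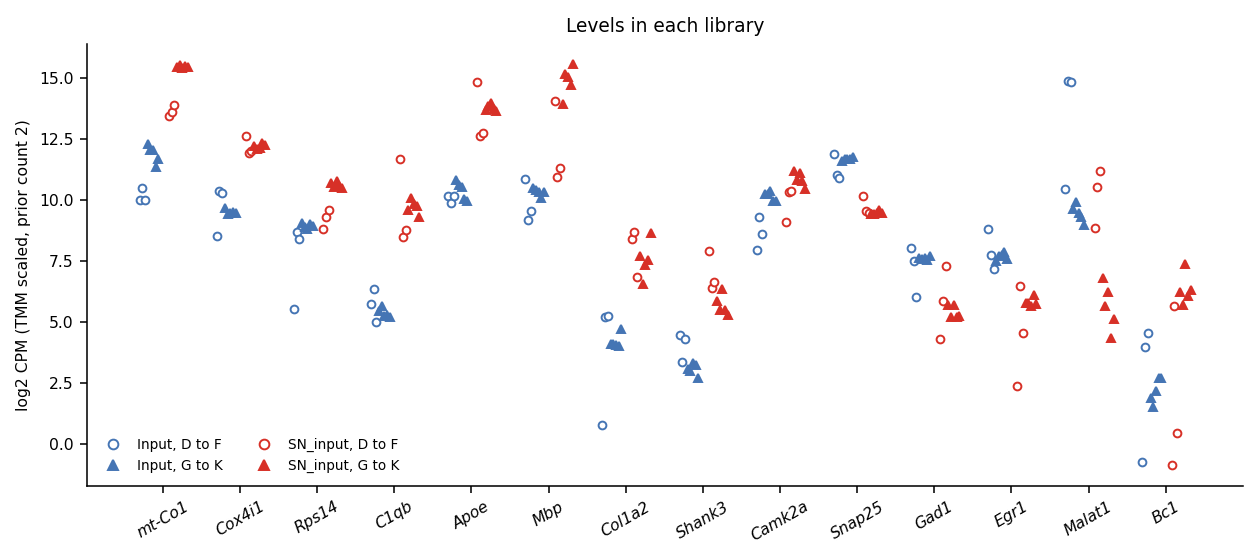
Level (log2 CPM, TMM scaled, prior count 2) of 14 genes in each of the 16 libraries, Input in blue and SN_input in red, circles for letters D to F and triangles for letters G to K. mt-Co1, Cox4i1, C1qb, Apoe, Mbp, Col1a2 and Shank3 lie higher and Snap25 and Egr1 lower in SN_input without overlap, whereas Rps14, Camk2a, Gad1, Malat1 and Bc1 overlap.

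Neuronal markers showed no common rise. RNA of forebrain excitatory neurons was read in both fractions, with Slc17a7 at 8.83, 9.12 and 10.06 log2 CPM in Input and 9.60, 9.82 and 10.03 in SN_input. Of 20 excitatory neuron markers, Camk2a (0.96 ± 0.23), Slc17a7 (0.59 ± 0.19), the vesicular glutamate transporter VGLUT1, and Grin2a (1.04 ± 0.21) were higher. Enc1 (-1.46 ± 0.24), Neurod6 (-2.19 ± 0.58) and Rasgrf2 (-1.56) were lower, and the median was -0.37 (0 higher and 14 lower with library totals alone, 2 and 2 without 1 of the letters G to K). Rtn4rl2, a Nogo receptor relative, had the largest change of the list, -2.22 ± 0.81, which did not pass. Of 19 inhibitory neuron markers, 0 were higher and 4 lower: Gad1 (-1.81 ± 0.35) and Gad2 (-1.01 ± 0.29), which make GABA, Calb2 (-1.74) and Lhx6 (-2.02 ± 0.70). Without 1 of the letters G to K, 1 or 2 were lower, against 6 without letter D and 11 with library totals alone. The list median of -0.63 was -0.15 without letter D and -0.95 without letter E. Gad1 lay at 6.03, 7.61 and 8.04 in Input and at 4.30, 5.47 and 7.29 in SN_input, with 1 letter higher in SN_input. Sst and Cck, both neuropeptides of interneurons, had 0.51 ± 0.32 and 0.64 ± 0.27, which did not pass. Of 22 RNAs of the neuronal cell body and cytoskeleton, 10 were lower and 0 higher (20 lower with library totals alone). They include Snhg11, which the annotation used here classes as protein-coding and which is also a member of the lists of nuclear long noncoding RNAs and of small nucleolar RNA host genes below. Among the others were Tubb3 (-1.30 ± 0.21), a neuronal tubulin, Eno2 (-1.55 ± 0.19) and Elavl4 (-1.93 ± 0.50), an RNA-binding protein of neurons. Map1b had -0.52 ± 0.20 and Rtn1, a reticulon, 0.17 ± 0.24, and neither passed.

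The mRNAs of synaptic proteins were not higher as a list. Of 30 presynaptic members, 2 were higher and 11 lower, with a median of -0.22 (0 higher, 23 lower and -1.24 with library totals alone). Snap25, a SNARE protein of vesicle fusion, lay at 10.93, 11.70 and 11.88 in Input and at 9.42, 9.47 and 10.17 in SN_input, without overlap (-1.97 ± 0.20, adjusted p = 4.42e-07). Syn1 (-1.43 ± 0.23), a vesicle phosphoprotein, also fell without overlap. Syt1, the calcium sensor of release, lay at 9.93, 10.08 and 12.17 in Input and at 9.82, 10.00 and 11.92 in SN_input, with a fold change of 0.01 ± 0.23. The 2 that rose were Bsn (1.10 ± 0.22), a giant scaffold of the active zone, and Slc17a7. The list summed to 1.75% to 2.62% of nuclear reads in Input and 1.02% to 1.49% in SN_input. The first set had a median of 0.14 and the second -0.59 in the model with set and fraction, whereas a fit of the first set alone gave -0.12 and of the second alone -0.67, so the sign in the first set depends on the fit.

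Of 30 postsynaptic mRNAs, 6 were higher and 6 lower, with a median of -0.27. These counts did not hold under other settings: library totals alone gave 1 higher and 19 lower, with a median of -1.36, leaving out letter D gave 9 and 11, leaving out letter G 6 and 2, and leaving out H, I, J or K 6 and 1. The median was 0.03 among letters D to F and -0.29 among letters G to K, and -0.24 in a fit of the first set alone. Shank3, a master scaffold of the postsynaptic density, lay at 2.72, 3.27 and 4.46 in Input and at 5.31, 6.11 and 7.94 in SN_input, without overlap (2.83 ± 0.32, adjusted p = 1.64e-06). Shank1, of the same family, rose by 2.11 ± 0.53, Agap2 by 1.85 ± 0.36, Dlgap3, a SHANK-binding protein, by 1.39 ± 0.23, Nlgn2, an adhesion protein of inhibitory synapses, by 1.07 ± 0.23, and Grin2a, an NMDA receptor subunit, as given above. Among those that fell were Gabrb2 (-2.13 ± 0.71), a subunit of the GABA-A receptor, Gphn (-1.63 ± 0.51), gephyrin, its anchor, Baiap2 (-1.58 ± 0.22) and Cnksr2 (-0.84). Grin2b, another NMDA receptor subunit and among the most abundant members, had -0.03 ± 0.34. In the control mice Shank3 had 3.53 and Snap25 -1.15.

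**Figure D4:**
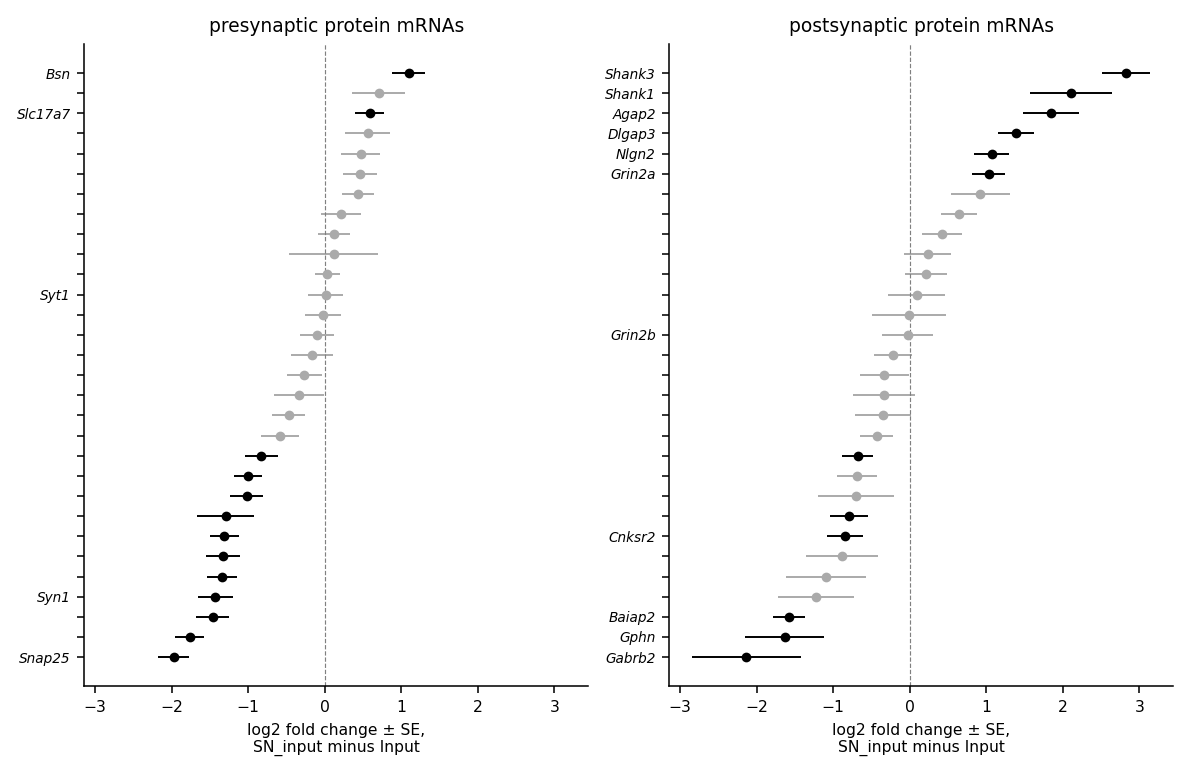
Log2 fold change with standard error (SN_input minus Input, 16 libraries) of the 30 presynaptic and 30 postsynaptic mRNAs, black where the adjusted p is under 0.05 and grey otherwise, with names for the genes described in the text. Of the presynaptic mRNAs 11 fell and 2 rose (23 and 0 with library totals alone), and of the postsynaptic mRNAs 6 fell and 6 rose (19 and 1 with library totals alone, 11 and 9 without letter D, and 1 and 6 without letter H, I, J or K).

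Messenger RNAs known to be carried into dendrites were higher for 12 of 30 and lower for 4, with a median of 0.14 that became -0.95 with library totals alone (3 higher and 16 lower). The list shares Shank1, Shank3, Dlgap3 and Camk2a with those above. Ppp1r9b, spinophilin, lay at 6.95, 7.92 and 8.16 in Input and at 8.46, 10.52 and 10.95 in SN_input (2.31 ± 0.23, adjusted p = 3.20e-07). Kif5a, a kinesin motor, rose by 1.88 ± 0.21, Ddn, dendrin, by 1.53 ± 0.16 and Ntrk2, the BDNF receptor, which astrocytes also express, by 1.35 ± 0.22, each without overlap. Camk2a, the kinase whose mRNA is the best known of this kind, lay at 7.96, 9.96 and 10.39 in Input and at 9.12, 10.63 and 11.19 in SN_input and was higher in all 8 letters. Actb rose by 1.60 ± 0.25. Arc, a classic dendritic mRNA, had -0.23 ± 0.43 and Nrgn, neurogranin, 0.34 ± 0.24, and neither passed. Cpeb1, which binds such mRNAs, fell by 2.36 ± 0.55.

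Bc1 is a short noncoding RNA of rodent neurons, made by RNA polymerase III and carried into dendrites. Its transcript (GRCm38 chr7:144914470-144914637, plus strand) is shown whole, with the longest stretch of at least 80% A in capitals, since an internal run of A can serve a poly(T) primer as a poly(A) tail does.
Bc1: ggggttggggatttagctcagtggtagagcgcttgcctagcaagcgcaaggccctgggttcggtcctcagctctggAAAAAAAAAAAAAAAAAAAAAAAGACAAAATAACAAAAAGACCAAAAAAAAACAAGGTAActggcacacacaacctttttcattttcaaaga
Its levels ran from -0.75 to 4.53 in Input and from -0.88 to 7.39 in SN_input, and the fold change of 2.96 ± 0.96 passed the test (adjusted p = 0.0342). Only 6 of 8 letters were higher. In the second set the fold change was 4.23 without overlap, and in the first set it was 0.46, with SN_input D and F at -0.88 and 0.45. The difference between the sets was not called for Bc1.

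RNAs retained in the nucleus were among those lost. Of 11 tested nuclear long noncoding RNAs, 6 were lower and 1, Pantr1 (1.64 ± 0.31), was higher, with a median of -1.90. The median was -1.18 over the 8 members left after thinning to equal depth, -2.49 without letter E, -2.68 in the second set alone and -2.99 with library totals alone. Malat1, which stays in nuclear speckles, lay at 9.00, 9.77 and 14.89 in Input and at 4.34, 6.53 and 11.18 in SN_input (-3.70 ± 0.49, adjusted p = 1.46e-05). Within each set the fractions differed by -3.85 and -3.62. SN_input E and F, at 10.53 and 11.18, were above 6 of the 8 Input libraries, and Input E and F were at 14.89 and 14.86. Snhg11 did not overlap (-3.71 ± 0.40), and Meg3 (-3.09 ± 0.37), Miat (-3.34 ± 0.75), Rian (-1.80 ± 0.59) and Ftx (-4.08 ± 0.85) fell. The control mice had -3.21 for Malat1 and -1.98 for Meg3. Neat1, with at most 457 reads in a library, and 5 others did not pass the filter.

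Immediate early genes, whose mRNA is made in short bursts after neuronal activity, were lower for 6 of 20 and higher for 0, with a median of -1.30 (18 lower with library totals alone, 13 without letter D). Egr1 lay at 7.16, 7.74 and 8.83 in Input and at 2.38, 5.75 and 6.49 in SN_input, without overlap (-2.21 ± 0.39, adjusted p = 0.000386). Fos fell by 2.55 ± 0.64 and Nr4a1 by 1.94 ± 0.52. Splicing factors, proteins of the nucleus, had 9 of 30 lower and 0 higher (27 lower with library totals alone, 22 without letter D), with Ddx5 at -1.48 ± 0.30, Pnisr at -1.72 ± 0.47 and Tra2a at -2.05 ± 0.53, while Son and Rbm39 had -0.58 ± 0.45 and -0.46 ± 0.34 and did not pass. Of 30 transcription and chromatin factors, 3 were higher and 3 lower, shares near those of all genes (1 higher and 18 lower with library totals alone): Mef2c (-0.98 ± 0.25) and Bcl11a (-1.71 ± 0.49) of cortical neurons fell, and Nfia (1.57 ± 0.35) and Nfix (0.56), which astrocytes express strongly, and Zfhx3 (3.2 ± 0.52) rose. Chd3, a chromatin remodeller, had 0.96 ± 0.40 and did not pass.

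In 3 lists of the secretory pathway, 0 members were lower and between 4 of 22, not far from the share of all genes, and 20 of 30 were higher. For translocation into and folding in the endoplasmic reticulum, 20 of 30 mRNAs were higher and 0 lower, with a median of 1.03 (0.05, and 0 calls, with library totals alone). Without 1 of the letters G to K, 14 to 16 were higher. Calr, a chaperone of the lumen, lay at 6.84, 7.48 and 7.73 in Input and at 8.54, 8.74 and 9.67 in SN_input, without overlap (1.44 ± 0.20, adjusted p = 3.27e-05). Canx rose by 0.72 ± 0.19, Hspa5 by 0.94 ± 0.20 and Ssr4, of the translocon, by 1.63 ± 0.34, while Sec62, also of the translocon, had 0.75 ± 0.39 and did not pass. Lysosomal mRNAs were higher for 16 of 27 and lower for 0, with Cd63 at 2.85 ± 0.25, Ctsd at 1.98 ± 0.21 and Grn at 2.27 ± 0.34, all without overlap. Psap, prosaposin, and Ctsb, a cathepsin, had 0.51 ± 0.47 and 0.36 ± 0.29, and neither passed. With library totals alone the list had 7 higher and 3 lower. Its median was 1.75 among letters D to F and 0.99 among letters G to K. Many of these are abundant in microglia, whose markers rose as given above, and the part this plays was not tested. Among neuropeptides and secretory granule proteins, 4 of 22 were higher and 0 lower: Cpe, a prohormone peptidase also made by astrocytes (2.48 ± 0.27), Scg3 (2.20 ± 0.19), Pcsk1n (1.90 ± 0.25) and Vgf (1.18 ± 0.25). Their list median of 0.51 became -0.40 with library totals alone (3 higher and 6 lower), and was 1.18 among letters D to F and 0.24 among letters G to K.

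The counts of the cytosolic housekeeping and channel lists moved with the scaling. With library totals alone, they were 1 higher and 14 lower for glycolysis, 0 and 16 for cytosolic chaperones, 0 and 14 for the proteasome, 1 and 14 for the actin and tubulin cytoskeleton, 0 and 16 for voltage-gated channels, and 1 and 5 for histones. Leaving out 1 of the letters G to K gave 3 lower for glycolysis, 1 lower for chaperones, 1 or 2 higher and 0 lower for the proteasome and 4 higher and 0 lower for the cytoskeleton. Leaving out letter D gave 11 lower for glycolysis, 8 lower for chaperones, 5 higher and 4 lower for the proteasome and 6 higher and 8 lower for the cytoskeleton. The values that follow are those with TMM and all 16 libraries. Of 18 glycolytic mRNAs, 2 were higher, Aldoc of astrocytes and Ldhb (0.79), and 5 lower, among them Aldoa (-0.70 ± 0.21), Pgk1 (-1.12) and Pfkp (-1.53). Cytosolic chaperones had 4 of 18 lower and 0 higher, with Hspa8 at -0.68 ± 0.24 and Hsph1 at -1.47 ± 0.34, and Hsp90ab1, the most abundant with Hspa8, had -0.04 ± 0.19. Proteasome mRNAs had 4 of 25 higher, Psmb6 (1.23 ± 0.27) and Psma7 (0.77 ± 0.23) among them, and 1 lower. Actin and tubulin cytoskeleton mRNAs had 6 of 27 higher and 2 lower, with Arpc1b, an actin nucleator subunit of myeloid cells, at 2.35 ± 0.29 and Tmsb4x, which binds actin monomers, at 0.90 ± 0.27. Of 22 voltage-gated channels, 4 were higher, with Hcn2 at 1.64 ± 0.36, and Cacnb4 was lower (-1.54 ± 0.23), while Scn8a, an abundant sodium channel, had 0.43 ± 0.25 and did not pass. Of 20 tested histone genes, 5 were higher and 1 lower, with Hist1h4h at 3.22 ± 0.60 and H2afj at 1.11 ± 0.32, while H3f3b, a replacement histone, had 0.71 ± 0.34 and did not pass. Of 11 small nucleolar RNA host genes, Gas5 was higher (1.30 ± 0.37) and Snhg11 lower, and the only small nucleolar RNA tested, Snord104, had -0.39 ± 0.82. Medians of 3 of these lists with more than 1 tested member differed in sign between letters D to F and letters G to K. They were 0.65 and -0.19 for channels, -0.10 and 0.67 for histones, and -0.38 and 0.41 for small nucleolar RNA host genes. Snord104 had -1.90 and 0.37. In fits of each set alone, the proteasome (-0.16 and 0.18) and the cytoskeleton (-0.06 and 0.02) also differed in sign. The shares called in the proteasome and channel lists lie near the 12.7% and 6.25% of all genes.

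The 10 nuclear protein-coding genes that rose most, among those with an average of at least 4 log2 CPM and the same direction in all 8 letters, were Stab1, Lag3 (4.92 ± 0.54), Itgam, Cd52 (4.51 ± 0.55), Fcgr3 (4.49 ± 0.42), C1qb, C1qc, Ltc4s (4.34 ± 0.52), Lst1 (4.19 ± 0.57) and Psmb8 (4.17 ± 0.64). Itgam, C1qb, C1qc, Cd52, Fcgr3, Ltc4s and Lst1 are known from myeloid cells, and Psmb8 is a subunit of the immunoproteasome. The 10 that fell most were Snhg11, whose class is given above, AU041133 (-3.52 ± 0.95), Klf10 (-3.20 ± 0.71), Hook1 (-3.09 ± 0.67), Nap1l2 (-2.94 ± 0.55), Sytl2 (-2.87 ± 0.64), Trank1 (-2.87 ± 0.48), Eml5 (-2.83 ± 0.66), Relch (-2.73 ± 0.58) and Zc2hc1a (-2.71 ± 0.48). Nap1l2 lay at 5.57, 5.86 and 6.25 in Input and at -2.88, 2.89 and 4.19 in SN_input. For 6 of these 10 the SN_input D library alone was the lowest.

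Per length of exon, the make-up of the 2 fractions overlapped: of the 20 leading nuclear protein-coding genes by median level per kilobase, 12 were shared. In SN_input these were led by Cox6a1, Cst3, Cox8a and Apoe, at medians of 25814, 21813, 20427 and 19713 TPM (reads per kilobase of exon, scaled to the same total in each library). In Input they were led by Selenow, Nrgn, Calm2 and Actb, at 10582, 10109, 9752 and 8671 TPM. Snap25 ranked 18 in Input and 465 in SN_input, and Mbp 169 and 10. These genes were chosen by their level after the values were seen, and 5 of the 8 libraries behind each median are of the second set. Over the 8 SN_input libraries Cox6a1 ran from 21807 to 61603 TPM, Cst3 from 11168 to 32664, Cox8a from 12833 to 32248 and Apoe from 7373 to 28819. Over the Input libraries Selenow ran from 3354 to 11911, Nrgn from 8180 to 16838, Calm2 from 7359 to 10827 and Actb from 1225 to 9907. Within each fraction these ranges overlap, so the order of neighbours is not set by them.

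Fold changes were also set beside transcript length and GC content, as a description with no test. With nuclear protein-coding genes split into 5 equal groups by transcript length, the median fold change from the shortest to the longest group was 0.22, 0.02, -0.12, -0.30 and -0.15, so the fourth group was lowest. In the shortest group 20% of the genes were higher and 4.14% lower, in the fourth 7.94% and 8.33%, and in the longest 9.86% and 6.47%. By GC content, the median rose at each step, from -0.38 in the lowest group to 0.24 in the highest, with 9.15% and 3.39% of genes lower. Both sets showed the GC order, and so did the control mice, at -0.50 and 0.31. The length order did not hold in the control mice, where the shortest group had -0.26 and the longest 0.12. Ribosomal and respiratory chain mRNAs are short, and the part they play in the length order was not tested.

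**Figure D5:**
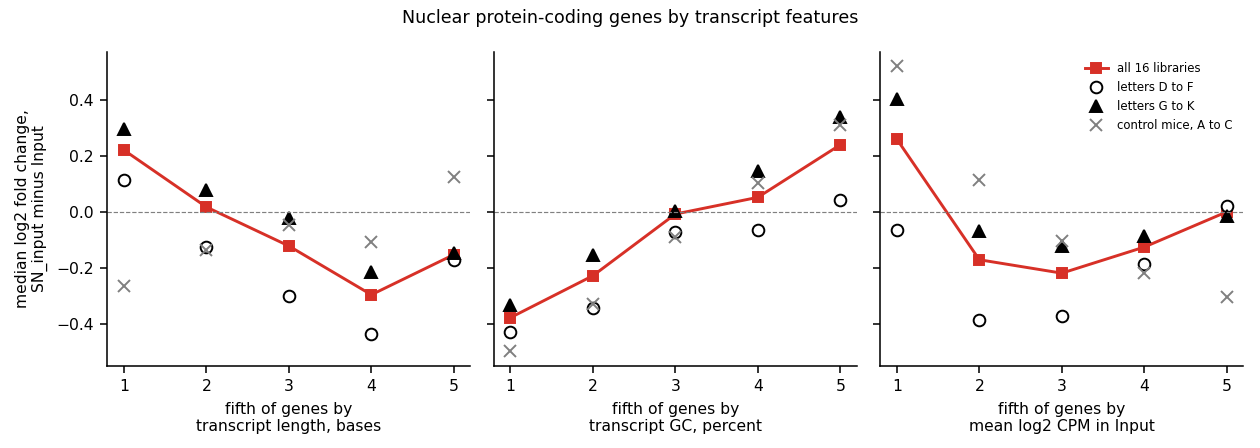
Median log2 fold change (SN_input minus Input) of nuclear protein-coding genes in 5 equal groups by transcript length, transcript GC content and mean Input level, for all 16 libraries (squares), letters D to F (circles), letters G to K (triangles) and the control mice (crosses). The GC panel runs from -0.38 to 0.24 in all 16 libraries.

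In control mice, 3 libraries of each fraction gave 0 of 11559 genes called by edgeR's quasi-likelihood test (0%), with 1312 at an unadjusted p under 0.05. These libraries are not shared with the tamoxifen comparison. Of the genes called higher in tamoxifen mice and tested in control mice, 1122 of 1513 (74.2%) had a positive fold change there, and 674 of 766 called lower (88.0%) had a negative one, against 65.4% agreement in sign over all genes tested in both. Microglia (3.25), astrocyte (1.60), mitochondrially encoded mRNA (2.62) and nuclear long noncoding RNA (-1.81) medians had the sign seen in tamoxifen mice, whereas ribosomal protein (-0.32), mitochondrial ribosomal protein (-1.0) and respiratory chain (-0.87) medians had the opposite sign. So did, with the tamoxifen value first, the medians of the proteasome (0.22 and -0.86), translation factors (0.30 and -0.44), tricarboxylic acid cycle (0.51 and -0.37), cytoskeleton (0.07 and -0.61), histones (0.50 and -0.12), small nucleolar RNA host genes (0.21 and -1.73), postsynaptic mRNAs (-0.27 and 0.66), inhibitory neurons (-0.63 and 0.14), excitatory neurons (-0.37 and 0.02) and transcription and chromatin factors (0.03 and -0.29). The interaction of treatment and fraction called 0 of 11083 genes (0%), with 327 at an unadjusted p under 0.05. Since the control mice alone and the first set alone also gave 0 calls, this count does not show that control and tamoxifen mice were alike. The interaction of set and fraction called 2 of 13299 (0.015%), Ehd4 and Slc8a1.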

How the data were processed

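RNA was sequenced from whole-tissue and synaptosome-fraction samples with Smart-Seq v4 and NEBNext Ultra II, per the labels' protocols. The deposited values are raw read counts per gene. The submitters' processing notes name FastQC 0.11.7, Trimmomatic 0.38, Bowtie2 2.3.5, STAR 2.7.0d, HTSeq 0.9.1 and edgeR, with no order. The genome build and annotation are not given in the sources used here. The tables of the sets list 54146 and 55359 identifiers, and the 50714 they share were used, all matched to GENCODE M21 (GRCm38) for symbols, classes and sequences.

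The main test was edgeR 4.0.16's quasi-likelihood test (R 4.3.3) on 16 libraries with set as covariate, TMM scaling, filterByExpr with a minimum count of 10, and Benjamini-Hochberg adjustment at 0.05. Standard errors are the fold change over the root of the F statistic. Per-library levels were computed as log2 CPM, adding a prior count of 2. Shares and counts of genes were tested by exact permutation within set, two-sided, whose smallest p is 0.000397. Scripts were tested on simulated data. Alternatives were DESeq2 1.42.0, limma 3.58.1 voom, other scalings and filters, and subsets of libraries.

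Named genes are the 5 (all genes) and 10 (nuclear protein-coding) with the largest and lowest fold changes among called genes with an average of at least 4 log2 CPM and the same direction in all letters, and, in each list, the 2 members with the highest level and the member with the largest change. Others were chosen after their values were seen. The members and lists were chosen with earlier results of these data known. Values of some genes that this rule names are not reported here.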

Additional observations from a re-analysis of the deposited data

Results flagged for a closer look

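Of 414 groups of 8 libraries examined, 1 for each fraction of each gene named above and of each share or count of genes, 95 (22.9%) had 1 library far from the other 7, by the gap to its nearest neighbour relative to the whole range, where chance gives about 1 in 20. That figure assumes 8 libraries of equal spread, while letters D to F varied more than letters G to K, so the 22.9% cannot be read against it. Every such library belonged to letters D to F. SN_input D accounted for 49 of the 95, Input D for 22, Input F for 11, Input E for 10 and SN_input E for 3. The values below are log2 CPM unless another unit is given, and -2.88 is the level of a count of 0.

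SN_input D was the lowest of its group, among mitochondrial RNAs, for mt-Cytb at 13.43, mt-Nd1 at 12.92, mt-Tl1 at -2.88, mt-Tp at 2.54 and mt-Tq at 2.38. Among nuclear genes it was the lowest for Kif5a at 10.04, Camk2a at 9.12, Cx3cr1 at 4.96, Cacng4 at 4.50, Ddx5 at 3.62, Hsph1 at 2.82, Egr1 at 2.38, Pdgfra at 2.20, Eif4a2 at 2.07, Snhg11 at 1.47 and Stab1 at 0.20. It was also the lowest, at or near a count of 0, for Cd34 at -0.42, Pfkp at -0.42, Calb2 at -0.88, Elavl4 at -0.88, Nr4a1 at -0.88, Bcl11a at -1.56, Gphn at -1.56, Lyz2 at -1.56, Trank1 at -1.56, Tra2a at -1.56, Rasgrf2 at -1.56, Pnisr at -1.56, Zc2hc1a at -1.56, Mrc1 at -2.88, Nap1l2 at -2.88 and Snord104 at -2.88. It was the highest of its group for Bsg at 10.97, C1qc at 11.24, Cpe at 14.02, Ctsb at 10.52, Dlgap3 at 8.77, Fcgr3 at 9.47, Grn at 9.47, Mdh1 at 10.27, Psap at 11.62, Psmb8 at 7.35, Snap25 at 10.17, Ssr4 at 9.32 and Zfhx3 at 7.96. SN_input D also had the lowest share of reads with more than 1 alignment (33.1%), of reads in no feature (1.27%, or 2.40% of the reads with a single alignment) and, at equal nuclear depth, the fewest nuclear genes with at least 10 reads (5566).

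Input D was the lowest of its group for Agap2 at 2.0, Aldoa at 10.30, Calr at 6.84, Cd63 at 4.36, Col1a1 at 0.56, Col1a2 at 0.76, Glul at 6.38, Grin2a at 6.38, Grin2b at 6.78, Hsp90ab1 at 9.55, Ldhb at 8.59, Nlgn2 at 5.37, Pabpc1 at 4.36, Rps14 at 5.54, Scn8a at 7.0, Snord104 at -2.27 and mt-Tp at -0.0226. It was the highest for Cpe at 10.98, Egr1 at 8.83, Olig1 at 7.55, Slc17a7 at 10.06 and Syn1 at 9.22. Input E was the lowest for Cd34 at 3.25, Cdh5 at -2.88, Ddx5 at 7.73, Dlst at 5.35 and Got2 at 5.38, and the highest for Cpeb1 at 5.55, Eif3f at 6.94, Mrpl20 at 7.82, Ptprz1 at 7.06 and Tra2a at 6.66. Input F was the lowest for Cspg4 at -2.88, Ctsb at 7.47, Egfl7 at 3.19, Gad1 at 6.03, Klf10 at 3.80, Pfkp at 6.85, Slco1c1 at 0.71 and Trank1 at 4.91, the highest for Cd52 at 4.03 and Gad2 at 7.27, and it had the highest share of small nuclear RNA (0.0021%). SN_input E was the lowest for Hsp90ab1 at 10.14 and the highest for Cacnb4 at 6.74 and for unprocessed pseudogenes (0.034% of assigned reads).

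For 2 genes the difference between fractions itself differed between the sets, by edgeR's quasi-likelihood test of the interaction. Ehd4, a membrane-trafficking ATPase, had a log2 fold change of -4.59 among letters D to F and 2.15 among letters G to K, a difference of 6.73 (adjusted p = 0.0475). Slc8a1, a sodium-calcium exchanger, had 3.60 and -0.16, a difference of -3.76 (adjusted p = 0.0475). Neither was called between the fractions over all 16 libraries.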

How the results depend on the processing

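The 1685 higher and 831 lower calls moved with the scaling, the tool and the libraries used. Library totals alone gave 461 and 5048, with 8.37% of calls higher against 67.0% with TMM. Without a low-count filter 2077 genes were lower, with DESeq2 1933, with limma voom 2135, and higher calls were then 50% of the DESeq2 calls and 50.8% of the voom calls. A fit of all 32 tamoxifen libraries gave 332 higher and 50 lower and ended 98 of the named calls. The first set alone gave 0 and 0, and the second set alone 3555 and 3352. Leaving out 1 letter gave 1168 to 2756 higher and 454 to 1963 lower, with the high ends from letter D, and the calls it ended are named above. Of the alternatives chosen after seeing the data, limma voom with library weights gave 3631 and 3519, and leaving out the SN_input libraries D to F gave 2466 and 1861. RLE scaling, leaving out mitochondrial genes and thinning stayed within 1.5 times the main counts.

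The letters were not taken to pair the libraries, which the sources leave unknown: correlations of same-letter deviations were -0.0015 to 0.0734, and 5 of 8 letters correlated best with their own. With the letter as a replicate block, 1392 genes were higher and 734 lower, and 8 genes named above no longer passed, with adjusted p of 0.0768 for Dlst, 0.0574 for Gabrb2, 0.0572 for Pfkp, 0.0698 for Nr4a1, 0.0709 for Lhx6, 0.099 for Cdh5, 0.103 for Hbb-bt and 0.0817 for Rian (edgeR's quasi-likelihood test).

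Signs turned for genes with small changes, for both interaction genes, for some shares and also for called genes with changes near 1, such as Olig1, Grin2a, Camk2a and Hspa5. Log2 fold changes of the other sign were, with library totals alone, -0.48 for Nfix, -0.47 for Psap, -0.39 for Sst, -0.22 for H3f3b, -0.10 for Chd3, -0.34 for Canx, -0.77 for Rtn1, -0.63 for Ctsb, -0.59 for Scn8a, -0.12 for Bsg, -0.11 for Camk2a, -0.0529 for Hspa5, -0.55 for Ehd4, -0.17 for Psma7, -0.28 for Sec62, -0.16 for Pdgfra, -0.14 for Ldhb, -0.10 for Got2, -0.27 for Cck, -0.13 for Eef2, -0.98 for Syt1, -0.26 for Eef1a1, -0.0398 for Tmsb4x, -0.60 for Nrgn, -0.00643 for Grin2a and -0.50 for Slc17a7. RLE scaling gave -0.10 for Syt1, DESeq2 -0.10 for Syt1, no filter -0.0611 for Syt1 and thinning -0.0691 for Syt1. Limma voom gave 0.0876 for Hsp90ab1, 0.26 for Grin2b and 0.00849 for Snord104, all 32 libraries 0.00632 for Hsp90ab1 and 0.0807 for Grin2b and the replicate block 0.11 for Grin2b. The first set alone gave -0.0309 for Chd3, -4.71 for Ehd4, 0.10 for Grin2b, -0.28 for Olig1, -0.27 for Nrgn and -0.0608 for Slc17a7. The second set alone gave -0.27 for Psap, -0.35 for Rtn1, -0.0835 for Ctsb, -0.18 for Scn8a, -0.21 for Syt1, -0.25 for Slc8a1 and 0.29 for Snord104. Library weights gave -0.17 for Psap, -0.20 for Rtn1, -0.00854 for Ctsb, -0.058 for Syt1, -0.12 for Slc8a1 and 0.26 for Snord104. Leaving out SN_input D to F gave -0.20 for Psap, -0.28 for Rtn1, -0.0118 for Ctsb, -0.11 for Scn8a, 0.00452 for Hsp90ab1, -0.14 for Syt1, -0.18 for Slc8a1 and 0.36 for Snord104. Leaving out 1 letter gave -0.11 to 0.0854 for Syt1, -0.24 to 1.04 for Ehd4, -0.53 to 0.13 for Cd34, -0.10 to 0.00921 for Grin2b, -0.16 to 0.0738 for Hsp90ab1 and -0.13 to 0.26 for Rtn1. Outside the mitochondrial chromosome the share difference was 0.916 points for nuclear protein-coding genes and 0.0355 for antisense RNA. In the first set alone it was -0.158 for processed pseudogenes, -0.0083 for miRNA genes, 0.0774 for assigned reads and -0.641 for reads not aligned. The causes were not tested.

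Thinning to equal depth gave 1422 higher and 818 lower. In simulated data, each gene had the same dispersion in all 16 libraries. There 2.08% of genes changed by 1 on the log2 scale were called, 56.2% by 2 and 95.6% by 4. The real spread differed by set and fraction, so these shares need not hold for the real comparison. Common dispersion was 0.788 in Input and 2.07 in SN_input for the first set, against 0.0178 and 0.278 for the second.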
